A study of Mus musculus with 49 samples.

Results

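The 6 genes described here, Mdm2, Mdm4, Ppm1d, Ccng1, Rchy1 and Usp7, encode proteins that lower the amount or the activity of the tumor suppressor p53 or act on those that do, and they were taken by symbol as 6 of the 20489 genes in the deposited tables. RNA-seq was carried out in mouse embryonic stem (mES) cells of strain 129S6/SvEvTac, in 49 libraries of 16 conditions. In most of them the endogenous Trim24 gene, which encodes a chromatin-binding cofactor of p53 and RING-domain ubiquitin ligase, carried a degron tag, so that the protein is destroyed when the degrader dTAG13 is added. p53 was activated with the DNA-damaging drug doxorubicin at 1 µM, and Trim24 was degraded with 500 nM dTAG13 given over the same hours. The time course held 3 libraries each of cells with p53 activated and Trim24 degraded for 2, 4, 8 or 12 h, 3 each of cells with p53 activated and Trim24 expressed for the same times, and 3 uninduced libraries at 0 h. A separate uninduced experiment held 3 libraries with Trim24 degraded for 4 h and p53 basal, and 3 untreated libraries of the degron line. The RING experiment held 4 libraries each of cells with ligase-null Trim24, with degraded Trim24 and with expressed Trim24, all after 4 h of activation. In the ligase-null cells 2 cysteines of the endogenous RING domain were edited to alanine; their genotype label names only the degron tag. The wild-type experiment held 2 libraries of untagged cells with p53 activated for 4 h and 2 of untreated cells. The degron line was made by picking clones, the ligase-null cells were edited by the same procedure, and a difference between lines cannot be told apart from a difference between clones. The treatment label of the untreated degron libraries of the uninduced experiment reads as activated, while their titles read untreated; Mdm2 lay at 178.2, 186.1 and 188.9 CPM (read count scaled to a common library size after TMM normalization) in them, beside 185.9, 176.7 and 180.3 CPM at 0 h of the time course, and they were taken as untreated.

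p53 is a transcription factor that is held low in unstressed cells because several of the genes it switches on encode its own inhibitors. Mdm2 is the RING ubiquitin ligase that marks p53 for the proteasome, and Mdm4 (also called MdmX) is its partner, which covers the activation domain of p53. Ppm1d (Wip1) is a phosphatase that removes the phosphate marks placed on p53 and on the DNA damage kinases. Ccng1 (cyclin G1) recruits a phosphatase to Mdm2, Rchy1 (Pirh2) is another RING ubiquitin ligase for p53, and Usp7 is a deubiquitinase that stabilizes Mdm2, Mdm4 and p53. Mdm2, Ppm1d, Ccng1 and Rchy1 are known as p53 target genes.

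On GRCm38, in a GENCODE annotation that may differ slightly from the one the authors used, Mdm2 (ENSMUSG00000020184.15) spans chr10:117688875-117710758, Mdm4 chr1:132959484-133030561, Rchy1 chr5:91948904-91963068 and Usp7 chr16:8689595-8792308, all on the minus strand. Ccng1 lies on the minus strand at chr11:40748552-40755311 and Ppm1d on the plus strand at chr11:85311244-85347066. The exons of 5 members overlapped those of no other gene. A pseudogene on the opposite strand, Thap6, overlaps 18.02% of the exon bases of Rchy1, and featureCounts was run with its default settings, under which strand is not used and a read that overlaps exons of 2 genes is assigned to neither. The level of Rchy1 is therefore less certain than that of the others.

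The promoter windows of the 3 members called higher on activation are shown because these members moved together. A RefSeq promoter window (GRCm38.p6) holds 250 bases before and 50 bases after an annotated start, and it was searched for the p53 consensus half-site of 10 bases. The consensus, though not each match, is the same read on either strand, and a full p53 site holds 2 of them. The match is in capitals. The windows lie at chr10:117710709-117711008 (minus strand) for Mdm2, at chr11:85311004-85311303 (plus strand) for Ppm1d and at chr11:40755237-40755536 (minus strand) for Ccng1.
Mdm2: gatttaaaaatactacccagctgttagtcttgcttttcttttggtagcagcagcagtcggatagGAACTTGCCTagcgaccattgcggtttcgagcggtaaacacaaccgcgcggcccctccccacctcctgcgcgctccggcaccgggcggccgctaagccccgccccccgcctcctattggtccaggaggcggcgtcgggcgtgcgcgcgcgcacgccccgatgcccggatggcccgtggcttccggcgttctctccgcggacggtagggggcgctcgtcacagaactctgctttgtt
Ppm1d: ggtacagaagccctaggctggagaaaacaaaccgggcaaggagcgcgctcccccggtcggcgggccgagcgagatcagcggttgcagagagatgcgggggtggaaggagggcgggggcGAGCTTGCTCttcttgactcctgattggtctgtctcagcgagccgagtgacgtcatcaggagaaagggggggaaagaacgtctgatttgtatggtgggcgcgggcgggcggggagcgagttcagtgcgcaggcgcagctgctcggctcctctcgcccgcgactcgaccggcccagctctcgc
Ccng1: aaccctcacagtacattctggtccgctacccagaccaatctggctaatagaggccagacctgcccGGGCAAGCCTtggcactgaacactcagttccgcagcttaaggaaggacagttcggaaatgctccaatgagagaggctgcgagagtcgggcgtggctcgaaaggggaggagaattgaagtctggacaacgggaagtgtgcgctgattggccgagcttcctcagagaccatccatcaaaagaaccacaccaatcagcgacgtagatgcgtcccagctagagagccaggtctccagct
In the Ccng1 window the half-site was the downstream part of a 20-base stretch, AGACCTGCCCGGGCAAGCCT, that departs from a full site at 1 base. A share of 0.0883% of the 32851 RefSeq windows held a full site with at most 1 mismatch, whereas 8.36% held a half-site. A half-site was also found in 1 of the 2 windows of Rchy1 (GAGCTTGTCT), whereas no match lay in the 2 windows of Mdm4 or in the window of Usp7, whose annotated RefSeq start lies inside the gene as GENCODE gives it. The single half-sites of Mdm2 (GAACTTGCCT), Ppm1d (GAGCTTGCTC) and Rchy1 had 4 or more mismatches in each adjoining decamer. The matches are a description of these letters, and the windows do not reach the first intron, where the p53 response elements of Mdm2 are known to lie.

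**Figure D1:**
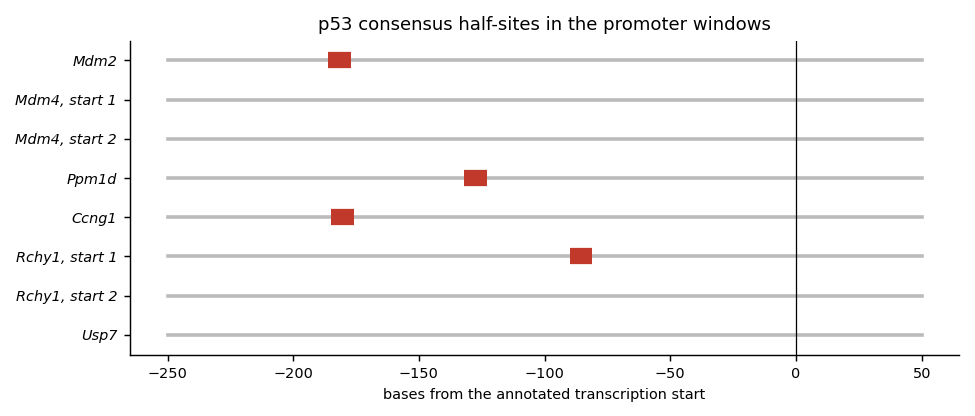
Position of p53 consensus half-sites (red blocks, 10 bases each, to scale) in the RefSeq promoter windows of the members (grey lines), in bases from the annotated start. Blocks begin at −186 in Mdm2, −132 in Ppm1d, −185 in Ccng1 and −90 in 1 of the 2 Rchy1 windows; the Mdm4 and Usp7 windows hold none.

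All 6 members passed the filter on low values in every comparison, with at least 759 reads for Rchy1 and 987 for Ppm1d in the library where each was lowest, so counting error was small. Scaled to CPM per kb of exon at 0 h, the order was Ccng1 (137 ± 8.27), Usp7 (104 ± 2.76), Mdm2 (35.6 ± 0.914), Mdm4 (25.8 ± 0.678), Ppm1d (17.9 ± 1.09) and Rchy1 (11.4 ± 0.414; SD, n = 3), and the libraries of neighboring genes in that order did not overlap. After 12 h of activation Mdm2 stood above Usp7, at 230.0 ± 8.43 and 59.1 ± 3.85 CPM per kb (SD, n = 3), and Ppm1d (47.8 ± 0.579) above Mdm4 (23.0 ± 1.58). The level of Mdm4 per kb rests on an exon union of 14798 bases that includes long alternative isoforms, so its scaling per kb is uncertain. Library totals ranged from 14422098 to 35185256 reads, the number of genes with at least 1 read from 16703 to 19710, and the replicates differed by more than counting noise in all 53 within-group pairs. Replicate 7 of the expressing cells of the RING experiment stood apart, with a chi-square per degree of freedom of 26.7 to 27.6 in its 3 pairs, against 14.9 or less in all others. Of 9 pluripotency markers 8 were above 10 CPM in every library. Of 7 fibroblast or feeder markers 4 stayed under 1 CPM throughout, and all 7 together summed to 8.5 to 56.7 CPM. The 5 trophoblast markers summed to 4.47 to 27.0 CPM. Primitive endoderm markers summed to 637.0 to 721.0 CPM in the uninduced experiment, against 12.9 to 96.8 CPM in all other libraries. In bulk RNA, fewer cells of a type and less RNA per cell cannot be told apart.

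p53 activation raised Mdm2, Ccng1 and Ppm1d within 2 h, and all 3 remained above the level at 0 h for 12 h. Ppm1d passed the minimum fold only from 4 h on. Usp7 was lower at 8 and 12 h, Rchy1 lay above its starting level at each time without reaching the minimum fold, and Mdm4 was above its starting level at 2 h and below it at 8 h, both within the minimum fold. A gene was called higher or lower at an adjusted p under 0.01 (limma, Benjamini-Hochberg) with a difference of 0.75 or more on the log2 scale, the thresholds of the study's methods. By this rule 2 of 6 members were called at 2 h, 3 at 4 h, 4 at 8 h and 4 at 12 h. Of all genes tested, 3.74% were called at 2 h, 18.7% at 4 h, 45.3% at 8 h and 53.2% at 12 h, so that at the late times the share of members called was not far from that of all genes. At an adjusted p under 0.01 alone, 4 of 6 members passed at 2 h, 5 at 4 h, 6 at 8 h and 5 at 12 h. Of all genes tested, 9.53%, 49.2%, 74.8% and 78.1% did so at these times. The share of all genes whose groups did not overlap on activation was not counted. The 4 comparisons share the 0 h libraries. The median log2 fold change of the members was 0.545 at 2 h, 0.778 at 4 h, 0.945 at 8 h and 1.074 at 12 h, against 0.005, −0.006, 0.02 and 0.042 over all genes tested.

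**Figure D2:**
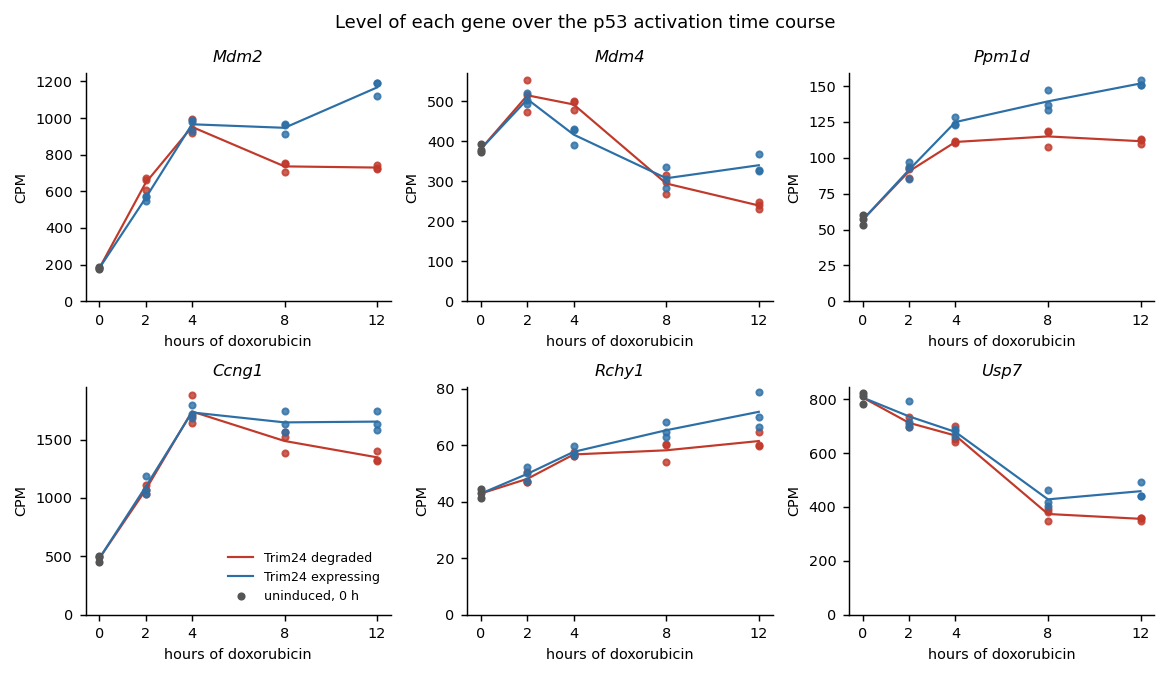
Level of each member (CPM, linear axis from 0) over hours of doxorubicin. Points are libraries and lines join group means; red, Trim24 degraded; blue, Trim24 expressed; grey, uninduced. Mdm2 separates at 8 and 12 h, where 706.2 to 753.8 CPM in degraded libraries stand against 912.6 to 1194 CPM in expressing ones, while the groups overlap at 4 h.

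Mdm2, the main ligase for p53, showed the largest response of the 6. It lay at 571.8, 545.5 and 574.1 CPM after 2 h of activation and at 929.6, 980.1 and 988.8 CPM after 4 h, against 185.9, 176.7 and 180.3 CPM at 0 h. The groups lay far apart, and the level at 4 h was higher than that at 2 h (log2 fold change 0.78, SE 0.05, adjusted p = 8.15e-11), although with median centring of the libraries this step was 0.74 and missed the minimum fold. It was 965.8, 912.6 and 962.3 CPM at 8 h and 1194, 1118 and 1190 CPM at 12 h. Relative to 0 h, the log2 fold change of Mdm2 was 1.64 (SE 0.05, adjusted p = 3.96e-13) at 2 h, 2.41 (SE 0.04, adjusted p = 2.6e-19) at 4 h, 2.39 (SE 0.06) at 8 h and 2.69 (SE 0.06, adjusted p = 3.15e-17) at 12 h, a 6.44-fold increase at the end. Between 4 and 8 h its level overlapped (log2 fold change −0.03, 95% interval −0.14 to 0.08), and between 8 and 12 h it differed by 0.30 (SE 0.08), below the minimum fold. The step from 4 to 8 h was 0.42 with quantile normalization and −0.16 with median centring, so its direction depended on the scaling.

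Ccng1, which recruits phosphatase to Mdm2, followed a similar course up to 8 h, but was not higher at 12 h than at 8 h. Its level was 1030, 1069 and 1188 CPM after 2 h and 1681, 1799 and 1718 CPM after 4 h of activation, against 503.9, 449.4 and 494.0 CPM at 0 h. No activated library overlapped the uninduced ones, and the log2 fold change was 1.18 (SE 0.06, adjusted p = 2.63e-10) at 2 h and 1.85 (SE 0.04, adjusted p = 9.67e-17) at 4 h. At 8 h it lay at 1741, 1566 and 1635 CPM and at 12 h at 1746, 1584 and 1632 CPM. These levels overlapped those at 4 h, and the log2 fold change against 0 h stayed at 1.77 (SE 0.06) at 8 h and 1.78 (SE 0.06, adjusted p = 2.02e-14) at 12 h. As in Mdm2, the direction from 4 to 8 h depended on the scaling, with 0.30 under quantile normalization and −0.21 under median centring.

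The phosphatase gene Ppm1d showed a smaller response than these 2 genes, from a lower level. It had 85.22, 96.99 and 92.71 CPM after 2 h, 123.0, 128.3 and 123.4 CPM after 4 h and 153.9, 150.5 and 151.0 CPM after 12 h, against 59.87, 53.08 and 57.63 CPM at 0 h. All activated libraries lay above the uninduced ones. The log2 fold change of 0.68 at 2 h (SE 0.07, adjusted p = 8.82e-07) was under the minimum fold, while those of 1.13 at 4 h (SE 0.05, adjusted p = 6.49e-13), 1.29 at 8 h (SE 0.07) and 1.41 at 12 h (SE 0.06, adjusted p = 4.73e-13) were past it.

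Rchy1, the other RING ligase among the members, had the smallest upward difference of the known p53 targets among the members. Its libraries lay at 47.18 to 52.1 CPM after 2 h, 56.39 to 59.76 after 4 h, 62.87 to 68.2 after 8 h and 66.57 to 78.84 after 12 h, against 41.21 to 44.32 CPM at 0 h. No activated group overlapped the uninduced one. The log2 fold change was 0.21 at 2 h (adjusted p = 0.037), 0.42 at 4 h (adjusted p = 2.28e-06), 0.60 at 8 h and 0.74 at 12 h (SE 0.07, adjusted p = 3.09e-08), each under the minimum fold. The value at 12 h lay so near to it that leaving out replicate 3 at 0 h, or replicate 2 or 3 at 12 h, brought it to 0.76, 0.79 or 0.75 and past both thresholds, as did quantile normalization, with 0.85.

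Mdm4, the partner of Mdm2, did not pass both thresholds at any time. It lay at 493.2, 502.8 and 520.5 CPM after 2 h, against 373.6, 379.0 and 393.0 CPM at 0 h. The 2 h libraries were all higher, with a log2 fold change of 0.40 (SE 0.05, adjusted p = 1.85e-05). Its level was 391.3, 429.6 and 430.0 CPM after 4 h, 335.9, 282.4 and 305.0 CPM after 8 h and 327.2, 367.3 and 326.6 CPM after 12 h. The log2 fold change was 0.13 at 4 h (adjusted p = 0.0144), −0.31 at 8 h (SE 0.06, adjusted p = 2.27e-06, and 0.0105 without trend and robust estimation) and −0.17 at 12 h (adjusted p = 0.0163). These late values depend on the scaling of the libraries: with quantile normalization they were 0.21 at 8 h and 0.38 at 12 h, of the opposite sign, and with median centring −0.52 at 8 h and −0.38 at 12 h (adjusted p = 1.43e-05). Per kb of exon, the level of Mdm2 relative to that of Mdm4 was 3.25 ± 0.113 after 2 h, 6.75 ± 0.145 after 4 h, 8.99 ± 0.546 after 8 h and ranged from 8.86 to 10.6 after 12 h, against 1.38 ± 0.0601 at 0 h (SD, n = 3), a ratio within each library that does not depend on a common scaling factor.

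Usp7, which protects Mdm2 and Mdm4 from degradation, was the only member called lower. It lay at 698.8, 717.7 and 793.8 CPM after 2 h and 662.8, 683.9 and 690.6 CPM after 4 h, against 824.1, 782.8 and 813.5 CPM at 0 h, and fell to 462.1, 403.1 and 419.9 CPM after 8 h and 493.2, 441.0 and 441.9 CPM after 12 h. From 4 h on, all activated libraries lay below the uninduced ones. The log2 fold change was −0.13 at 2 h (adjusted p = 0.121), −0.25 at 4 h (adjusted p = 3.94e-06), −0.91 at 8 h (SE 0.06) and −0.82 at 12 h (SE 0.06, adjusted p = 6.12e-10). Most of the decrease lay between 4 and 8 h (log2 fold change −0.67, SE 0.06), just under the minimum fold. Under quantile normalization the values were −0.40 at 8 h and −0.20 at 12 h and the calls were lost. That scaling moved the median gene by −0.213 at 8 h and −0.226 at 12 h, and genes at or above 5 on the log2 CPM scale, where all members lie, by a median of 0.242 and 0.193. Median centring moved every gene by −0.209 and −0.216 and kept both calls.

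Other properties of the libraries also differed from 0 h at every time. Genes with at least 1 read numbered 16991 to 17183 after 2 h, 17483 to 17623 after 4 h, 18263 to 19489 after 8 h and 18089 to 18537 after 12 h, against 16724 to 16899 at 0 h, and the 9 pluripotency markers summed to 4060 to 4220 CPM after 2 h, 2830 to 2940 CPM after 4 h, 1410 to 1540 CPM after 8 h and 1020 to 1120 CPM after 12 h, against 4990 to 5060 CPM at 0 h. Of these markers 1 was called lower at 2 h, 5 at 4 h, 7 at 8 h and 8 at 12 h. Trp53, which encodes p53, fell to 138.2 ± 6.16 CPM at 8 h and 90.75 ± 14.6 CPM at 12 h, against 292.1 ± 15.6 CPM at 0 h (SD, n = 3; log2 fold change −1.08 and −1.69). The part of these in the levels of the members was not tested. In the comparisons of 8 h with 0 h, 8 h with 4 h, 12 h with 8 h, in the wild-type experiment and on Trim24 loss at 8 h, limma's prior took over the gene-wise variance almost completely, so their adjusted p are too small to be read as sizes and are given only beside a second value or left out. Without trend and robust estimation, Mdm2 at 8 h had an adjusted p of 1.67e-07, Ppm1d 4.56e-06, Ccng1 1.01e-06 and Usp7 2.44e-05, Rchy1 1.5e-04 and Mdm4 0.0105. Between successive times, limma called 1 member from 2 to 4 h (9.80% of all genes tested), 0 from 4 to 8 h (24.3%) and 0 from 8 to 12 h (6.42%), with 6, 4 and 1 members at an unadjusted p under 0.05 (49.2%, 71.1% and 47.8% of all genes tested). limma-voom called the same numbers.

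**Figure D3:**
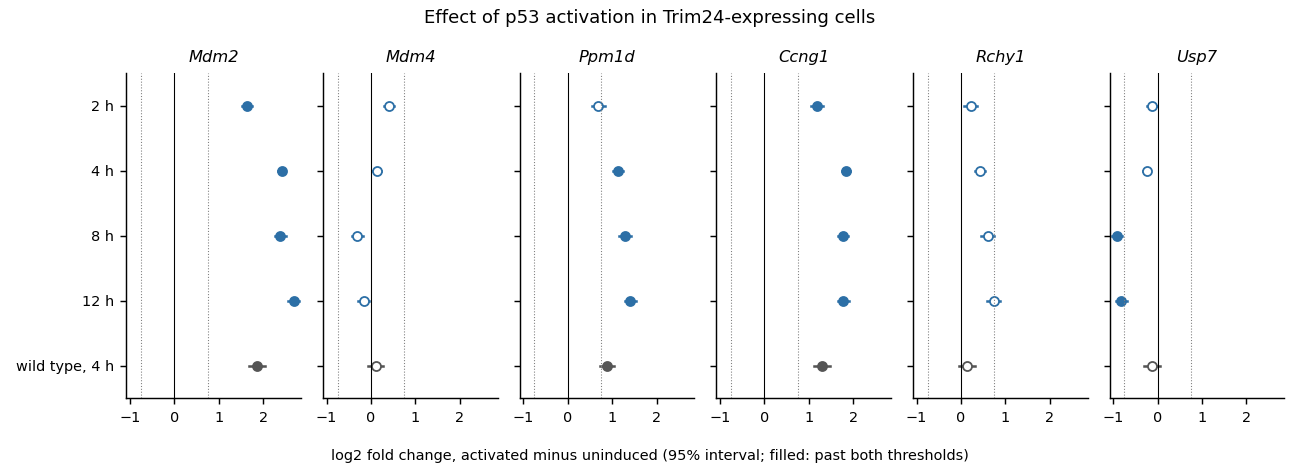
Log2 fold change of each member on p53 activation in cells that express Trim24 (activated minus uninduced, with 95% intervals), for 2, 4, 8 and 12 h of the time course and for 4 h in wild-type cells. Filled points passed both thresholds and dotted lines mark the minimum fold of 0.75; Mdm2 reaches 2.69 at 12 h and Usp7 −0.91 at 8 h.

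Wild-type cells, whose Trim24 is untagged, answered with the same 3 genes at 4 h. Mdm2 had 923.5 and 897.0 CPM in activated cells, against 257.8 and 242.8 CPM in untreated ones (log2 fold change 1.86, SE 0.09). Ccng1 had 1816 and 1626 CPM in activated and 730.1 and 661.2 CPM in untreated cells (1.31, SE 0.09), and Ppm1d 133.3 and 116.1 CPM in activated and 68.36 and 66.07 CPM in untreated cells (0.89, SE 0.09). In each of the 3 genes both activated libraries lay above both untreated ones. With 2 libraries a group this says little, and in Rchy1 and Usp7, which were not called, the groups did not overlap either. Without trend and robust estimation the adjusted p of Mdm2, Ccng1 and Ppm1d were 5.78e-04, 0.00144 and 0.00444. Mdm4 (0.10, 95% interval −0.07 to 0.27), Rchy1 (0.13, −0.04 to 0.31) and Usp7 (−0.13, −0.31 to 0.04) were not called. Of all genes tested, 10.3% were called. Leaving out replicate 1 of the activated cells kept the 3 members, with 676 genes called in all, against 1688 with it. The starting levels differed between experiments, Ccng1 lying at 695.6 ± 48.8 CPM in untreated wild-type cells (SD, n = 2), 769.2 ± 44.3 CPM in untreated cells of the uninduced experiment and 482.4 ± 29.1 CPM at 0 h of the time course (SD, n = 3 each), and whether the responses of the lines differ was not tested.

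Degradation of Trim24 changed none of the members past both thresholds at any time. At 12 h, however, all 6 were lower in cells with degraded Trim24, with no overlap between the groups in any of them, as 24.9% of all genes tested were, and 5 of 6 had an adjusted p under 0.01, against 11.5% of all genes tested that were lower by that criterion. By both thresholds 0 of 6 members were called at 2, 4, 8 and 12 h, where 0.338%, 1.15%, 1.58% and 4.11% of all genes tested were called, while 1, 2, 3 and 6 members had an unadjusted p under 0.05, as did 7.52%, 24.9%, 22.7% and 41.5% of all genes tested. limma-voom on the recovered reads also called 0 at each time. Since degrader and doxorubicin were given for the same hours, the length of Trim24 loss and that of p53 activation cannot be told apart, and the comparisons at different times share no libraries. In the expressing cells Trim24 RNA itself fell on activation. It was 120.5 ± 2.52 CPM at 4 h, 67.17 ± 5.065 CPM at 8 h and 69.73 ± 2.003 CPM at 12 h, against 210.6 ± 3.18 CPM at 0 h (SD, n = 3 each). This RNA is no measure of the Trim24 protein, and its part in the differences was not tested.

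The largest of these differences was that of Mdm2. After 12 h of activation it lay at 742.5, 725.2 and 721.7 CPM with Trim24 degraded, against 1194, 1118 and 1190 CPM with Trim24 expressed. The log2 fold change was −0.68 (SE 0.06, 95% interval −0.80 to −0.55, adjusted p = 8.03e-09), a ratio of 0.626, and leaving out each library in turn gave −0.71 to −0.66. At 8 h it was 706.2, 753.8 and 748.9 CPM with Trim24 degraded, against 965.8, 912.6 and 962.3 CPM with Trim24 expressed (−0.36, SE 0.08), with an adjusted p of 4.15e-04 that was 0.0612 without trend and robust estimation and 0.0209 without replicate 3 of the expressing cells. At this time 4.13% of all genes tested were lower at an adjusted p under 0.01, and Mdm2 was the 1 member among them. The groups did not overlap at either time. At 8 h Ppm1d, Ccng1, Rchy1 and Usp7 also lay lower in all 3 degraded libraries, by −0.28 to −0.15, with adjusted p of 0.0151 or more, and of 0.157 or more without trend and robust estimation. With Mdm2 this made 5 of 6 members that were lower without overlap, against 17.0% of all genes tested. The adjusted p of Ppm1d was 0.00638 with quantile normalization (−0.19) and 0.00144 with median centring (−0.24). Under these scalings it thus passed 0.01 beside Mdm2. At 4 h the levels of Mdm2 were 921.0, 994.4 and 940.6 CPM with Trim24 degraded and 929.6, 980.1 and 988.8 CPM with Trim24 expressed, and overlapped (−0.02, 95% interval −0.11 to 0.06). At 2 h they were 605.3, 672.6 and 662.5 CPM with Trim24 degraded, against 571.8, 545.5 and 574.1 CPM with Trim24 expressed, higher in all degraded libraries, but with a log2 fold change of 0.20 (SE 0.06) and an adjusted p of 0.236.

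Mdm4 lay higher at 4 h and lower at 12 h when Trim24 was degraded. After 4 h it lay at 478.6, 501.1 and 497.5 CPM with Trim24 degraded, against 391.3, 429.6 and 430.0 CPM with Trim24 expressed (log2 fold change 0.24, SE 0.05, adjusted p = 8.3e-04). It was the 1 member with an adjusted p under 0.01 at 4 h, where 5.51% of all genes tested had one in either direction; its adjusted p was 0.0958 without trend and robust estimation, 0.0214 with no filter on low values, 0.0133 with all groups in the fit and 0.016 without replicate 3 of the degraded cells. In the same libraries the pluripotency markers summed to 2580 to 2660 CPM with Trim24 degraded, against 2830 to 2940 CPM with Trim24 expressed, 5 of 9 of them being lower at an adjusted p under 0.01, and 18034 to 18603 genes had a read with Trim24 degraded, against 17483 to 17623 with Trim24 expressed. The part of these in the difference of Mdm4 was not tested. After 12 h it lay at 247.1, 230.8 and 240.8 CPM with Trim24 degraded, against 327.2, 367.3 and 326.6 CPM with Trim24 expressed (−0.50, SE 0.06, adjusted p = 1.85e-06). The groups did not overlap at either time, whereas at 8 h they did (−0.06, 95% interval −0.23 to 0.10). The per-kb ratio of Mdm2 to Mdm4 was 5.63 ± 0.138 with Trim24 degraded and 6.75 ± 0.145 with Trim24 expressed at 4 h, and 8.87 ± 0.237 with Trim24 degraded at 12 h (SD, n = 3 each), where it ranged from 8.86 to 10.6 with Trim24 expressed.

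The other members differed less at 12 h. Ppm1d had 109.7, 112.8 and 112.2 CPM with Trim24 degraded, against 153.9, 150.5 and 151.0 CPM with Trim24 expressed (log2 fold change −0.44, SE 0.06, adjusted p = 5.34e-06). It was thus at the level it had at 4 h with Trim24 degraded (111.5, 111.2 and 110.4 CPM). Usp7 had 359.8, 348.5 and 359.6 CPM with Trim24 degraded, against 493.2, 441.0 and 441.9 CPM with Trim24 expressed (−0.36, SE 0.06, adjusted p = 9.44e-05). Ccng1 had 1323, 1319 and 1401 CPM with Trim24 degraded, against 1746, 1584 and 1632 CPM with Trim24 expressed (−0.30, SE 0.06, adjusted p = 8.42e-04). Without trend and robust estimation the adjusted p was 0.0166 for Usp7 and 0.029 for Ccng1, while those of Mdm2, Mdm4 and Ppm1d stayed under 0.01. That of Ccng1 was also 0.0112 without replicate 1 of the degraded cells and 0.0283 with quantile normalization. Rchy1 had 59.5, 60.03 and 64.73 CPM with Trim24 degraded, against 78.84, 66.57 and 69.9 CPM with Trim24 expressed (−0.22, SE 0.07, adjusted p = 0.0234). The median log2 fold change of the 6 members was −0.404, against −0.021 over all genes tested. The libraries at 12 h held 18416 to 19121 genes with a read when Trim24 was degraded and 18089 to 18537 when it was expressed. Trp53 lay at 74.47 ± 2.262 CPM with Trim24 degraded, against 90.75 ± 14.58 CPM with Trim24 expressed (SD, n = 3 each; log2 fold change −0.27, adjusted p = 0.0435). The primitive endoderm markers summed to 55.5 to 61.9 CPM with Trim24 degraded, against 32.1 to 35.3 CPM with Trim24 expressed. The trophoblast markers summed to 13.6 to 15.5 CPM with Trim24 degraded, against 22.9 to 27.0 CPM with Trim24 expressed, and the pluripotency markers to 1040 to 1150 CPM with Trim24 degraded, against 1020 to 1120 CPM with Trim24 expressed. The part of these in the differences was not tested.

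**Figure D4:**
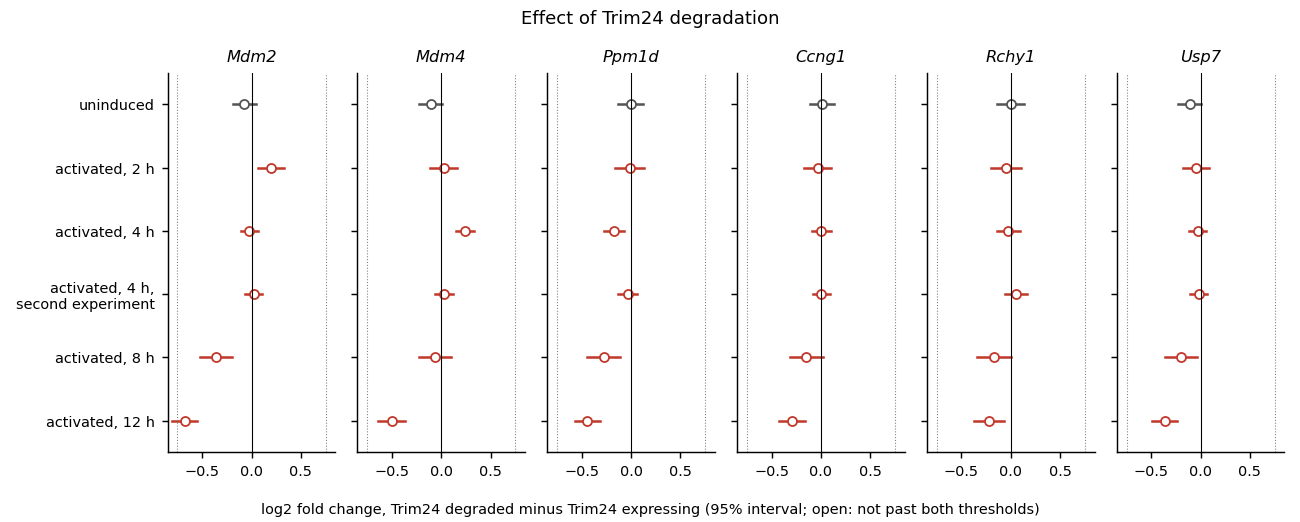
Log2 fold change of each member on Trim24 degradation (degraded minus expressing, with 95% intervals) in uninduced cells, after 2, 4, 8 and 12 h of activation and after 4 h in the RING experiment (second experiment). Open points did not pass both thresholds, and dotted lines mark the minimum fold of 0.75; at 12 h the values run from −0.68 for Mdm2 to −0.22 for Rchy1.

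Whether Trim24 loss acted differently on the members at 12 h than at 4 h was tested directly, as the fold change at 12 h minus that at 4 h. This value was negative in all 6 members, and 5 of 6 had an adjusted p under 0.01, against 12.0% of all genes tested. It was −0.66 for Mdm2 (SE 0.07, adjusted p = 2.58e-07) and −0.75 for Mdm4 (SE 0.08, adjusted p = 2.58e-07), and in both it held its adjusted p under 0.01 in each alternative tried. It was −0.33 for Usp7 (adjusted p = 0.00197), −0.30 for Ccng1 (adjusted p = 0.00531) and −0.27 for Ppm1d (adjusted p = 0.00654), and these 3 lost an adjusted p under 0.01 without trend and robust estimation (0.0279, 0.0545 and 0.0204). Leaving out each of the 12 libraries in turn, Usp7 stayed under 0.01 each time, Ccng1 lost it in 7 cases (replicates 1 and 3 of expressing and 2 and 3 of degraded cells at 4 h, replicate 1 of expressing and 1 and 2 of degraded cells at 12 h) and Ppm1d in 10 cases, in all but those without replicate 2 of the expressing cells at 4 or at 12 h. Quantile normalization gave an adjusted p of 0.114 for Ccng1 and 0.0181 for Ppm1d. For Rchy1 it was −0.20 (adjusted p = 0.118). At 8 h against 4 h 0 of 6 members passed (0.254% of all genes tested; lowest adjusted p = 0.0319, for Mdm2, with a difference of −0.34), and 0 of 6 passed at 2 h against 4 h (0.0787% of all genes tested; lowest adjusted p = 0.25).

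In uninduced cells, where p53 was basal, 0 of 6 members were called on Trim24 degradation (0.0781% of all genes tested), and 0 had an unadjusted p under 0.05 in limma (7.81% of all genes tested) or a call by limma-voom. Mdm2 had 176.7, 178.4 and 171.2 CPM with Trim24 degraded, against 178.2, 186.1 and 188.9 CPM in untreated cells (log2 fold change −0.07, 95% interval −0.19 to 0.05). The 6 values ran from −0.11 for Usp7 and Mdm4 to 0.01 for Ccng1, and the lowest bound of any interval was −0.23. Trim24 RNA itself was 211.9 ± 4.45 CPM in degraded and 207.0 ± 7.28 CPM in untreated cells (SD, n = 3 each), which is no measure of the protein that the degrader removes.

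The RING experiment repeated Trim24 degradation at 4 h in 4 libraries a group, and again 0 of 6 members were called (1.15% of all genes tested), 0 at an unadjusted p under 0.05 in limma and 0 by limma-voom. Of all genes tested, 33.3% had such a p. The log2 fold changes of the members ran from −0.04 for Ppm1d to 0.05 for Rchy1, and from −0.06 for Ppm1d to 0.05 for Rchy1 without replicate 7 of the expressing cells. With quantile normalization they ran from −0.12 for Mdm2 (adjusted p = 0.00804) to 0.004 for Rchy1. With median centring they ran from −0.08 for Ppm1d to 0.01 for Rchy1, so small differences here depended on the scaling. All 6 pairs of groups overlapped, while 22.2% of all genes tested did not. Mdm4 had 318.0 to 343.1 CPM with Trim24 degraded, against 313.8 to 338.2 CPM with Trim24 expressed (0.03, 95% interval −0.07 to 0.12), and the difference seen at 4 h of the time course was not detected here. In the same libraries Cdkn1a, a p53 target that encodes the cell cycle inhibitor p21, had 74.95 ± 4.70 CPM with Trim24 degraded, against 47.45 ± 2.54 CPM with Trim24 expressed (SD, n = 4 each; log2 fold change 0.66, adjusted p = 4.38e-11, under the minimum fold). At 4 h of the time course the difference of Cdkn1a was smaller (log2 fold change 0.20, adjusted p = 0.0219). There it had 87.62 ± 6.285 CPM with Trim24 degraded, against 75.92 ± 1.484 CPM with Trim24 expressed (SD, n = 3 each).

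Cells with ligase-null Trim24 differed in 3 members, by less than the minimum fold, and which members passed depended on the scaling of the libraries. Mdm4 lay at 428.6, 400.8, 398.9 and 402.8 CPM in ligase-null cells, against 340.3, 318.0, 335.7 and 343.1 CPM with Trim24 degraded and 338.1, 338.2, 313.8 and 323.6 CPM with Trim24 expressed. All ligase-null libraries were higher, with log2 fold changes of 0.29 (SE 0.05, adjusted p = 2.02e-05) against degraded and 0.31 (SE 0.05, adjusted p = 1.05e-05) against expressing cells. Ppm1d lay at 114.9, 102.4, 104.6 and 108.7 CPM in ligase-null cells, against 119.6, 118.3, 125.1 and 127.7 CPM with Trim24 degraded and 128.6, 129.4, 125.0 and 120.1 CPM with Trim24 expressed. Its log2 fold change was −0.19 (adjusted p = 0.00464) against degraded and −0.22 (adjusted p = 0.00171) against expressing cells. Usp7 lay at 633.9, 592.6, 596.6 and 602.0 CPM in ligase-null cells, against 697.6, 664.0, 667.5 and 719.8 CPM with Trim24 degraded and 702.7, 717.8, 693.0 and 669.7 CPM with Trim24 expressed. Its log2 fold change was −0.18 (adjusted p = 0.00337) against degraded and −0.20 (adjusted p = 0.00195) against expressing cells.

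Mdm2, Ccng1 and Rchy1 had an adjusted p above 0.01 in both ligase-null comparisons. Mdm2 averaged 869.8 ± 35.5 CPM in ligase-null cells, 895.5 ± 32.4 CPM with Trim24 degraded and 882.7 ± 22.4 CPM with Trim24 expressed (SD, n = 4 each). By both thresholds 0 of 6 members were called against expressing cells (6.95% of all genes tested) and 0 of 6 against degraded cells (6.68%). At an adjusted p under 0.01 alone, 3 of 6 were called in either comparison, against 27.3% and 36.2% of all genes tested. limma-voom called 0 by both thresholds as well, and the unadjusted p was under 0.05 for 3 and 4 members (45.9% and 54.5% of all genes tested). Without replicate 7 of the expressing cells the log2 fold changes against them were 0.30 for Mdm4, −0.25 for Ppm1d and −0.22 for Usp7, all with an adjusted p under 0.01. Without trend and robust estimation Mdm4 alone was left in each comparison. Mdm4 was also the only one left without replicate 2 of the ligase-null cells in both, without replicate 5 of the expressing cells in the first, and without replicate 7 of the degraded cells or replicate 3 or 4 of the ligase-null cells in the second. With quantile normalization, Usp7 (−0.003, adjusted p = 0.956) and Ppm1d (−0.09, adjusted p = 0.0955) were lost against degraded cells. Ccng1 then passed against degraded (0.28, adjusted p = 5.46e-07) and expressing cells (0.14, adjusted p = 1.4e-04), and Mdm2 against degraded cells (0.13, adjusted p = 0.00456). Both comparisons use the same ligase-null libraries. The per-kb ratio of Mdm2 to Mdm4 was 6.01 to 6.63 in ligase-null cells, 7.71 to 7.85 with Trim24 degraded and 7.42 to 8.44 with Trim24 expressed. The ligase-null cells are a separate line, in which Trim24 RNA lay at 97.88 ± 1.89 CPM, against 123.4 ± 3.48 CPM in expressing cells (SD, n = 4 each). Trp53 lay at 146.7 ± 8.98 CPM in ligase-null cells, against 212.2 ± 10.2 CPM in expressing cells (SD, n = 4 each), and the 6 primitive endoderm markers summed to 89.3 to 96.8 CPM in ligase-null cells, against 12.9 to 15.4 CPM in expressing cells. The part of these in the differences was not tested.

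**Figure D5:**
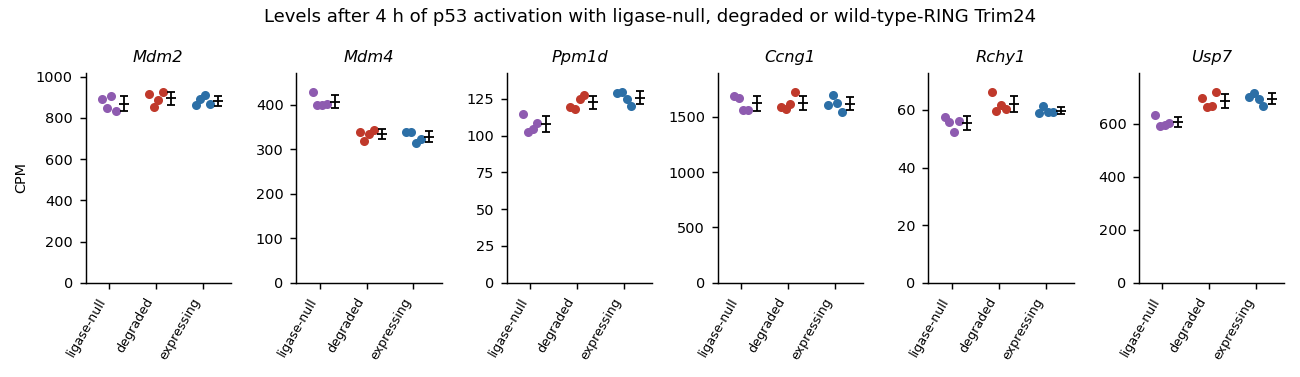
Level of each member (CPM, linear axis from 0) in the RING experiment after 4 h of activation, with ligase-null, degraded or expressed Trim24. Points are the 4 libraries of a group and bars the mean with SD; Mdm4 averages 407.8 CPM in ligase-null cells, 334.3 CPM with Trim24 degraded and 328.4 CPM with Trim24 expressed.

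Other genes of the p53 circuit were taken from 7 lists and are described by counts. On activation, 3.74% of all genes tested were called at 2 h, 18.7% at 4 h, 45.3% at 8 h and 53.2% at 12 h. Of 14 other p53 target genes, 11 were called higher at 2 h, 12 at 4 h, 11 at 8 h and 10 at 12 h, and 0 lower, with a median log2 fold change of 1.751 at 4 h. The largest at 4 h were Fas, a death receptor (3.89, from a low level of 0.537 ± 0.243 CPM at 0 h; SD, n = 3), the kinase gene Plk2 (3.30) and the antiproliferative gene Btg2 (2.56). Cdkn1a was at 75.92 ± 1.48 CPM at 4 h, against 22.47 ± 1.38 CPM at 0 h (SD, n = 3 each; log2 fold change 1.74, adjusted p = 1.13e-14). Of 12 other ubiquitin ligases for p53, 1 was called higher and 2 lower at 4 h, and 2 higher and 5 lower at 12 h, when the median was −0.597. Trim24 itself is on this list and was called lower at both times (log2 fold change −0.80 and −1.59). Topors fell to 148.0 ± 1.99 CPM at 4 h, against 301.0 ± 6.94 CPM at 0 h, and Trim28, a relative of Trim24 that assists Mdm2, fell to 533.0 ± 46.0 CPM at 12 h, against 2600 ± 108 CPM at 0 h (SD, n = 3 each). Cul9, which encodes a cullin that binds p53 in the cytoplasm, was the ligase gene called higher at 4 h (log2 fold change 1.01, SE 0.12) and stood at 2.27 (SE 0.11) at 12 h.

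Among 10 other deubiquitinases of p53 or Mdm2, 1 was called higher at 4 h, and 2 higher and 2 lower at 12 h. Usp2, which acts on Mdm2, was higher at both (1.23, SE 0.10, and 1.79, SE 0.10). Of 12 kinases, 0 were called at 4 h and 2, Csnk1a1 and the checkpoint kinase gene Chek1, were lower at 12 h (−0.91, SE 0.06, and −0.85, SE 0.06). Of 8 genes for inhibitors of Mdm2, the nucleolar proteins Gnl3 and Npm1 were lower at 12 h (−1.53, SE 0.07, and −1.10, SE 0.07) and 0 were higher. Of 13 relatives and partners of Ppm1d and Ccng1, 3 were higher and 4 lower at 12 h, and Ccng2, the sister gene of Ccng1, rose by 2.37 (SE 0.09). Of 9 genes for enzymes that acetylate, deacetylate or methylate p53, 1 was higher and 2 lower by both thresholds at 12 h, the methyltransferase gene Setd7 rising by 2.10 (SE 0.09).
On Trim24 degradation at 12 h, 0 of 14 other p53 targets were called, 5 of 14 were lower and 0 higher at an adjusted p under 0.01 alone, and their median log2 fold change was −0.235. Over the lists 3 genes were called at that time. Among all genes tested 4.11% were called, and 11.5% were lower at an adjusted p under 0.01 alone. Ccng2 was higher (70.6 ± 1.41 CPM with Trim24 degraded, against 39.8 ± 1.82 CPM with Trim24 expressed; log2 fold change 0.82, SE 0.07, adjusted p = 3.08e-09), and so was Cdkn2a, which encodes the Mdm2 inhibitor Arf (6.08 ± 0.56 CPM with Trim24 degraded, against 3.19 ± 0.587 CPM with Trim24 expressed). Usp29 was lower (2.47 ± 0.0654 CPM with Trim24 degraded, against 4.94 ± 0.234 CPM with Trim24 expressed; SD, n = 3 each). Ccng2 and Ccng1 thus lay on opposite sides, the log2 fold change of Ccng1 being −0.30.

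Across the means of the 9 time course conditions, Mdm2, Ppm1d and Ccng1 ran together, with Pearson correlations on the log2 scale between 0.941 and 0.98. Rchy1 had 0.946 with Ppm1d, 0.838 with Mdm2 and 0.823 with Ccng1, and Mdm4 had 0.88 with Usp7. Mdm2 and Mdm4 had a correlation of −0.116. These correlations share libraries and the 0 h group and describe the curves only. Among the 15098 other genes compared, those whose curves were most like that of Mdm2 were Cd80 (0.9855), Eda2r (0.9816) and Ttll10 (0.9806), and those most like Ccng1 were Eda2r (0.9972), Mab21l3 (0.9893) and Rbl2 (0.9873). Sowahb (0.9868), Bloc1s2 (0.9842) and Unc45b (0.9795) came nearest to Ppm1d, and Ddx59 (0.993), Kyat3 (0.9927) and 4933402E13Rik (0.9914) to Rchy1. Zfp770 (0.9832), Lrrn3 (0.9811) and Rars2 (0.9786) came nearest to Mdm4, and Slc35b1 (0.9973) and Ttc3 (0.996) to Usp7. Eda2r, which encodes a receptor of the TNF family and is a known p53 target, stood at 373.0 CPM after 12 h of activation, against 127.0 CPM at 0 h.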

How the data were processed

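Per the labels and the study's methods, the authors made stranded total RNA libraries, demultiplexed them with bcl2fastq 2.17 or 2.20, mapped to mm10 with STAR (multiply mapped reads at 1 random place), assigned reads to protein-coding genes with featureCounts and scaled by TMM in edgeR. The 4 deposited tables hold log2 CPM (prior count 8). Reads recovered from these values were whole in 100% of cases (tolerance 0.01), and the CPM printed lack the prior count, while fold changes are on the deposited scale. As the values are not counts, limma 3.58.1 in R 4.3.3 (trend and robust) took the place of the authors' edgeR test, within a table, over genes that lay 0.5 above the floor of −1.48 in at least the number of libraries of the smaller group. limma-voom on the recovered reads, other scalings, filters and variance models, a replicate block and leaving out libraries were alternatives. The test was tried on simulated data. Named were all members, Trim24, Trp53 and Cdkn1a, at most 3 called genes per list and comparison (the largest changes), and the 3 genes most correlated with each member (1 of those for Usp7 is not reported here). The members and lists were chosen with earlier results of these data known. Sequences are from RefSeq (GRCm38.p6), where all 6 members matched. Replicates are biological per the study's methods, and their numbers do not pair libraries.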

Additional observations from a re-analysis of the deposited data

Results flagged for a closer look

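The effect of Trim24 loss differed between 12 h and 4 h of activation in 5 members by a test of the difference itself, which 12.0% of all genes tested passed. The difference was −0.66 for Mdm2, −0.75 for Mdm4, −0.33 for Usp7, −0.30 for Ccng1 and −0.27 for Ppm1d on the log2 scale, with adjusted p from 2.58e-07 to 0.00654 (limma). At 12 h all 3 libraries with Trim24 degraded lay below all 3 with Trim24 expressed in each of the 5, as was so of 24.9% of all genes tested. At 4 h this was so only of Ppm1d, whereas in Mdm4 the 3 degraded libraries lay above. Degradation and activation had the same length at each time, and the 2 cannot be told apart.

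Among the 4 ligase-null libraries, replicate 1 stood apart in Mdm4, with 428.6 CPM against 398.9 to 402.8 CPM in the others, a gap of 0.869 of the group's range, above the critical value of Dixon's test. It was 1 of 18 groups of 4 libraries examined, and chance flags about 1 in 20. Without it Mdm4 remained higher in ligase-null than in expressing cells.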

How the results depend on the processing

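Of 96 effects (6 members in 16 comparisons), 43 had an adjusted p under 0.01, and 25 of these kept sign, side of 0.01 and call in every alternative that used these thresholds. Of the other 18, 13 lost an adjusted p under 0.01 or their sign in some alternative and 5 lost or gained only a call at the minimum fold. Quantile normalization gave Mdm4 at 8 h of activation the opposite sign (0.21), took the calls of Usp7 at 8 h (−0.40) and 12 h (−0.20) and added Rchy1 at 12 h (0.85). Median centring left 0 members called from 2 to 4 h and called 1 (Usp7, −0.80) from 4 to 8 h. Of the 53 other effects, 22 changed sign under some alternative and 0 were called with the minimum fold. With an adjusted p below 0.05 and any fold size, the calls included 5 members on activation at 2 h and 6 at 4 h (16.5% and 59.7% of all genes), 2, 2 and 6 on Trim24 loss at 4, 8 and 12 h (11.5%, 10.9% and 31.4%), 5, 4 and 1 between successive times (42.6%, 68.9% and 41.3%), and 3 and 4 in ligase-null against expressing and degraded cells (38.1% and 48.3%). Without trend and robust estimation, 3 members instead of 5 were lower at adjusted p alone on Trim24 loss at 12 h, and 1 instead of 3 differed in each ligase-null comparison. The test of Trim24 loss at 12 h against 4 h passed in 5 members, in 3 with quantile normalization, 2 without trend and robust, and 3 with all groups in the fit; these alternatives were chosen after seeing the data.

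Leaving out each library in turn gave 4 to 5 called members on activation at 12 h, 4 to 6 lower at adjusted p alone on Trim24 loss at 12 h, 1 to 3 and 1 to 4 in the ligase-null comparisons, 3 to 5 for the test of 12 h against 4 h, 0 to 1 at adjusted p alone on Trim24 loss at 4 h (Mdm4) and at 8 h (Mdm2), and the same count of members called by both thresholds elsewhere. Counts over all genes moved by more than 1.5 times with no filter on low values (activation at 2 h 138 against 581, 2 to 4 h 976 against 1550, Trim24 loss at 2 h 0 against 53, at 4 h 116 against 186, uninduced 0 against 12). They did so too without trend and robust (Trim24 loss at 2 h 23, 4 h 90, 8 h 162 against 276, uninduced 0). Higher genes were 47.6% of calls under quantile normalization and 45.9% under median centring at 8 h, against 59.6%, and 46.9% and 46.0% at 12 h, against 56.9%. The replicate block changed the call of 0 members, with 4 called at 12 h of activation; deviations of same-numbered libraries correlated between −0.207 and 0.198. No block could be had for the ligase-null comparisons, whose numbers overlap in fewer than 2.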
